A study of Mus musculus with 56 samples.

Results

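The genes described here are 10 components and targets of the NRF2 antioxidant pathway in mouse skeletal muscle. They are Nfe2l2, Keap1, Nqo1, Hmox1, Gclc, Gclm, Txnrd1, Srxn1, Gsr and Sod2. The rule names them and uses no measured value, though earlier results of these data were known when it was written, and all 10 were measured, among 18193 genes with a probe set of their own, of which 12351 were bright enough to be tested.

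NRF2, the product of Nfe2l2, is a transcription factor that is held in check by KEAP1, which delivers it for degradation. Oxidants and electrophiles, among them many constituents of tobacco smoke, modify cysteines of KEAP1, so that NRF2 builds up, enters the nucleus and binds antioxidant response elements together with a small MAF protein. Because NRF2 itself is governed mainly through the stability of the protein, its activity is usually read from the messages of its targets, which make glutathione, reduce thioredoxin, quinones and peroxiredoxins, and break down heme.

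Bulk RNA of the gastrocnemius, a calf muscle, was taken from C57BL/6 females and hybridised to 56 expression arrays. Mice breathed mainstream cigarette smoke (4%) or sham air through the nose for 2 hours a day on 5 days a week. There were 9 groups: a group left untreated (week 0), groups of sham air or smoke for 2, 12 and 24 weeks, and 2 cessation arms named FA and RA, with 12 weeks of smoke followed by 12 weeks without it. The sources used here do not define FA and RA, and FA also stands in the labels of mice kept on sham air. Each group had 6 mice, except 12 weeks of smoke with 7 mice on 8 arrays, of which mouse G8 gave 2 that were averaged, so that 55 mice entered the tests. The mice of a group were drawn at random from a larger number, and p-values measure the spread between them. Ages are not given, so weeks of exposure and age rise together. No knockout or transgene was used.

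All 12 muscle fibre markers were measured, and their mean ran from 13.39 to 13.59 on the log2 scale over the mice. On 12 of the 56 arrays Glycam1, a mucin of lymph node vessels, stood at an intensity of 6944 to 10546, against 7.71 to 307 on the other 44. The mean of the 12 lymphocyte markers with a probe set, of 14 listed, was 8.11 to 11.03 on these 12 arrays and 4.76 to 6.28 on the others. These arrays were spread unevenly: 3 of 6 mice after 24 weeks of smoke and 3 of 6 of cessation RA had one, against 2 of 7 after 12 weeks of smoke and 1 of 6 among untreated mice, 2 weeks of air, 24 weeks of air and cessation FA. The remaining groups had none. Values are for all 55 mice unless stated, and the comparisons were repeated in the 44 mice left when arrays with Glycam1 above 2000 are set aside. In whole muscle, fewer cells of a type and less RNA per cell cannot be told apart.

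Levels are log2 of the deposited intensity plus 16, from the brightest probe set of each gene, and differences on this scale understate changes of dim genes. The 10 genes had 23 probe sets, of which 22 lay above the brightness minimum of 5.71. Nqo1 and Hmox1 had 1 probe set each, while Sod2 and Srxn1 had 4. The probe sets used for Gclc and Srxn1 carry the suffix that marks sequence shared with other transcripts, so part of their signal may belong to other transcripts. A gene passed the test at a Benjamini-Hochberg adjusted p under 0.05 over all 12351 genes, in limma's moderated test. Where no member passed, the number at an unadjusted p under 0.05 is given beside the share of all genes at that same unadjusted threshold, and the share past the adjusted threshold is given apart from it.

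NRF2 reaches its targets by binding antioxidant response elements. The core of the element, TGACNNNGC or GCNNNGTCA on the opposite strand, was looked for in the 250 bases before the transcription start, and elements farther away were not searched. RefSeq promoters of build GRCm38.p6 held windows for 7 of the 10 genes, 9 windows in all, and 3 of these held a match, in Nfe2l2, Gclm and Txnrd1. Of all 32851 promoters, 10.2% held one. The 3 stretches follow, 5′ to 3′ along the gene's strand, with the match in capitals. The match lies 240 to 232 bases before the start in Nfe2l2 (minus strand, chr2:75704869-75704913), 134 to 126 before it in Gclm (plus strand, chr3:122245397-122245457) and 92 to 84 before it in 1 of the starts of Txnrd1 (plus strand, chr10:82859088-82859148).
Nfe2l2: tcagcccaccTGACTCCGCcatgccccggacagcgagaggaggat
Gclm: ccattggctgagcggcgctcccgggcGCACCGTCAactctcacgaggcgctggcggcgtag
Txnrd1: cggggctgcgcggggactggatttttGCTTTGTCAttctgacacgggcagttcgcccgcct
The match in Nfe2l2 reads along the gene's strand and those in Gclm and Txnrd1 read on the opposite strand. A match is a description of these letters and says nothing of binding in muscle. The windows of Keap1, Nqo1, Srxn1 and Sod2 held no match, which speaks only of these 250 bases.

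**Figure D1:**
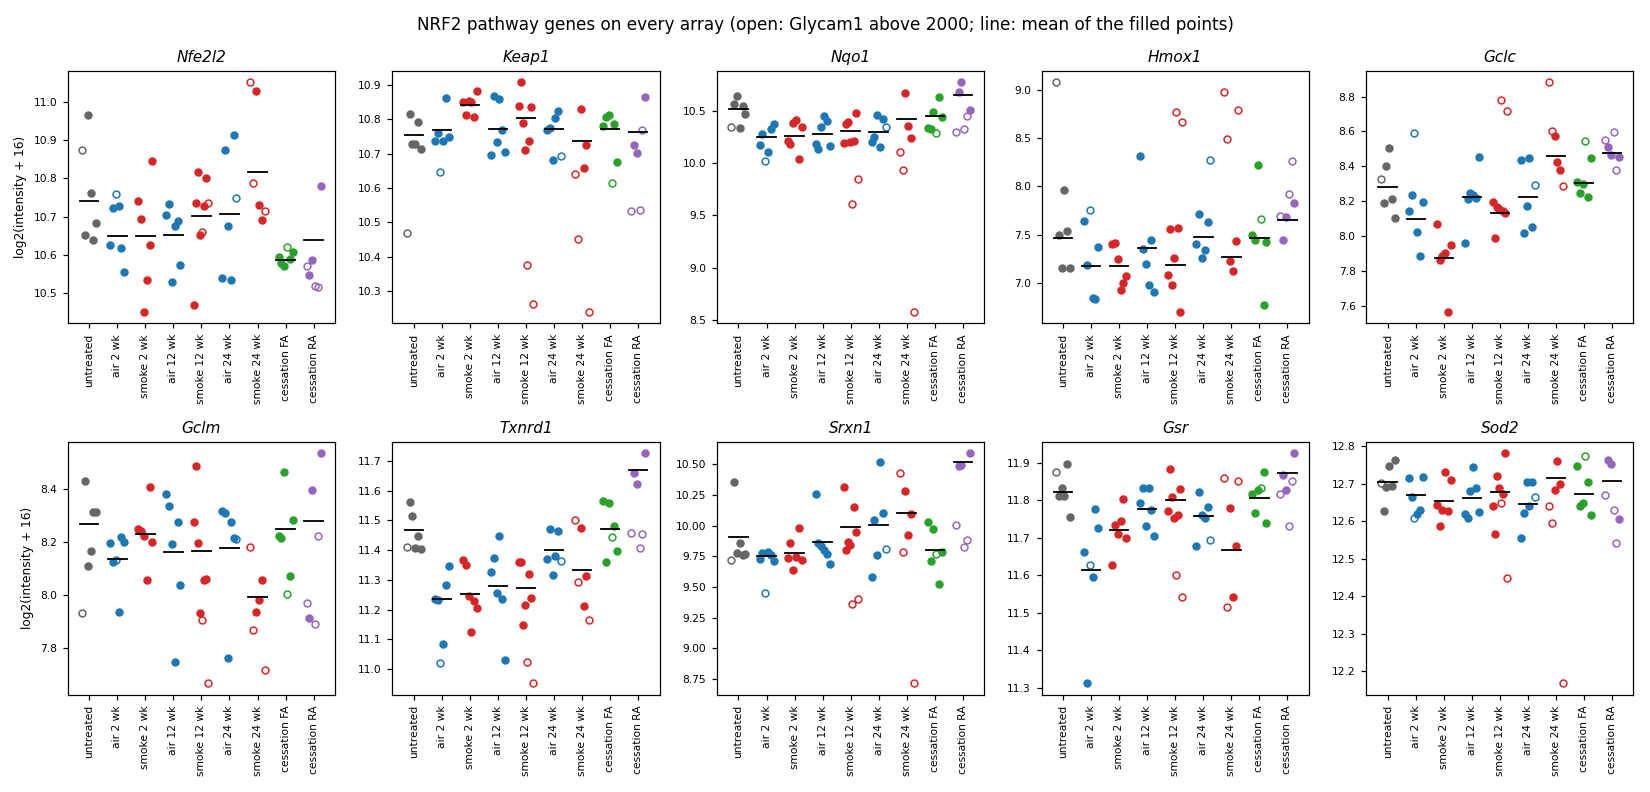
Level of each of the 10 genes, as log2(intensity + 16), on each of the 56 arrays by group. Points are arrays (both arrays of mouse G8 are shown), open points are arrays with Glycam1 above 2000, and lines are the mean of the filled points. Axes differ between genes. The open points of Hmox1 reach 9.08, whereas the filled points end at 8.32, and the 3 filled points of Txnrd1 in cessation RA lie above all filled points of 24 weeks of air.

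The first question was whether muscle of smoke-exposed mice carried a higher NRF2 target message than muscle of mice breathing air for the same time. None of the 10 genes passed at 2, 12 or 24 weeks or for the average of the 3 times, with all mice or without the Glycam1 arrays. Cyp1a1, the dioxin receptor target that marks exposure to smoke hydrocarbons, rose by 1.47 (SE 0.24, adjusted p = 0.00168 in limma, 7 of 7 mice above the highest air mouse) at 12 weeks in the same fit. It did not pass at 2 or 24 weeks, at 0.47 and 0.37 (adjusted p = 0.998 and 0.335), and in the mice without Glycam1 arrays it differed by 0.55, 1.55 and 0.60 at the 3 times, past the threshold at 12 weeks alone (adjusted p = 4.39e-04). At 2 weeks 1 of 10 members stood at an unadjusted p under 0.05 in limma, beside 2.06% of all genes with all mice and 5.01% without the Glycam1 arrays, and 0% of all genes passed in either set. At 12 weeks 0 of 10 did in either set, beside 1.86% and 7.53% of all genes, and 0.00810% of all genes passed, a single gene. At 24 weeks 4 of 10 did with all mice, beside 24.6% of all genes, and 1 of 10 without the Glycam1 arrays, beside 20.5%, while 0.470% and 0.364% of all genes passed. For the average of the 3 times 0 of 10 did in both sets, beside 9.17% and 13.2% of all genes, and 0.0324% and 0.154% passed. The median difference of the 10 genes was 0.05, -0.02 and -0.06 at 2, 12 and 24 weeks, with 6, 3 and 3 genes above 0, and that of all genes was -0.02, -0.01 and -0.03. In the mice without Glycam1 arrays the medians of the 10 were 0.01, 0.02 and 0.02, with 7, 7 and 5 above 0, so that those at 12 and 24 weeks turned sign, and those of all genes were -0.01, -0.02 and -0.01.

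**Figure D2:**
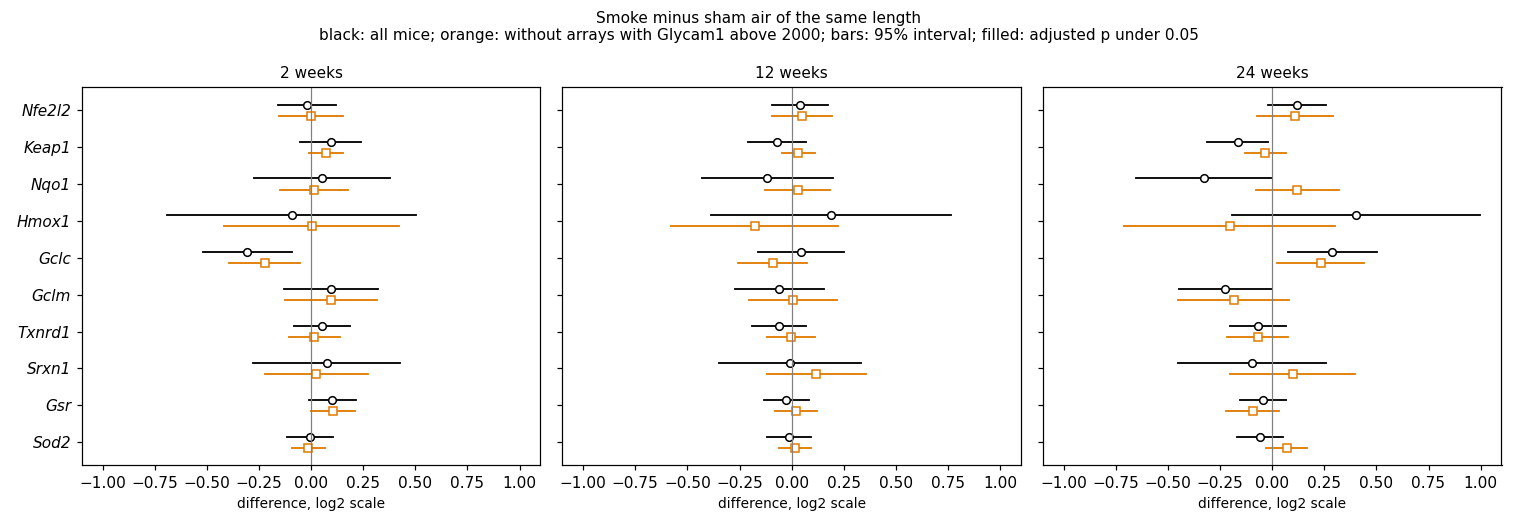
Difference between smoke and sham air (log2 scale) for each gene after 2, 12 and 24 weeks, with 95% intervals. Black circles are all mice and orange squares the mice without arrays with Glycam1 above 2000, and a filled symbol would mark an adjusted p under 0.05. No symbol is filled, and the intervals of Sod2 and Gsr are the narrow ones while that of Hmox1 is wide.

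Neither the transcription factor nor its inhibitor passed between smoke and air. Nfe2l2 lay at 10.53 to 10.91 (median 10.71) in 24-week air mice and at 10.69 to 11.05 (median 10.76) in 24-week smoke mice. The groups overlapped, with 2 smoke mice above the air range, and the difference of 0.12 (95% interval -0.02 to 0.26) had an adjusted p of 0.269 in limma (0.11 without the Glycam1 arrays). At 2 and 12 weeks the differences were -0.02 and 0.04. Keap1 ran from 10.68 to 10.82 (median 10.77) after 24 weeks of air and from 10.24 to 10.83 (median 10.65) after 24 weeks of smoke, so that 4 of 6 smoke mice lay below the lowest air mouse. Its difference of -0.17 (adjusted p = 0.152 in limma) shrank to -0.03 (interval -0.13 to 0.07) without the Glycam1 arrays.

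Nqo1, which encodes a quinone reductase and is the usual marker of NRF2 activity, did not pass at any time. It ran from 10.02 to 10.37 (median 10.22) after 2 weeks of air and from 10.04 to 10.41 (median 10.28) after 2 weeks of smoke. At 12 weeks it was 10.14 to 10.45 (median 10.26) in air and 9.61 to 10.39 (median 10.20) in smoke. After 24 weeks it was 10.15 to 10.46 (median 10.30) in air and 8.58 to 10.66 (median 10.17) in smoke, where the mouse at 8.58, replicate 6, had a Glycam1 array. The differences were 0.05 (95% interval -0.27 to 0.38), -0.12 (-0.43 to 0.20) and -0.33 (-0.65 to -0.00), none past the threshold (adjusted p = 0.203 at 24 weeks in limma). The last was -0.05 when smoke replicate 6 was left out. Without the Glycam1 arrays the 24-week difference turned to 0.12 (interval -0.08 to 0.32), and the 12-week difference to 0.03 (-0.13 to 0.19).

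Hmox1 encodes heme oxygenase, which degrades heme and is also abundant in macrophages. Its levels spread most widely of the 10, with a median standard deviation within groups of 0.47 against 0.06 for Sod2 and Gsr. After 24 weeks it was 7.26 to 8.27 (median 7.52) in air and 7.13 to 8.98 (median 7.96) in smoke, where 3 smoke mice lay above and 2 below the air range. The 3 high smoke mice, at 8.98, 8.49 and 8.79, were those with Glycam1 arrays. The difference of 0.40 (95% interval -0.19 to 1.00, adjusted p = 0.372 in limma) turned to -0.20 (-0.71 to 0.30) without them, on 3 smoke and 5 air mice. At 2 and 12 weeks the differences were -0.09 and 0.19.

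Glutathione synthesis depends on glutamate-cysteine ligase, whose catalytic subunit is GCLC and whose modifier subunit is GCLM. At 2 weeks Gclc ran from 7.88 to 8.59 (median 8.17) in air and from 7.57 to 8.07 (median 7.89) in smoke, a difference of -0.31 (SE 0.11, unadjusted p = 0.006, adjusted p = 0.998 in limma). At 24 weeks it ran from 8.02 to 8.45 (median 8.23) in air and from 8.29 to 8.88 (median 8.50) in smoke, a difference of 0.29 (SE 0.11, unadjusted p = 0.0095, adjusted p = 0.110 in limma). The groups overlapped at both times, with 2 smoke mice below the air range at 2 weeks and 3 above it at 24 weeks. At 12 weeks the difference was 0.04. With the Glycam1 arrays set aside the differences at 2 and 24 weeks were -0.22 and 0.23. The change of the smoke difference from 2 to 24 weeks, 0.59 (95% interval 0.29 to 0.90), was the largest of the 10 and did not pass (adjusted p = 0.138 in limma), and it was 0.46 (0.19 to 0.73, adjusted p = 0.115) without the Glycam1 arrays. With weights estimated for each array it passed at 0.50 (adjusted p = 0.0178). A second probe set of Gclc gave -0.05 at 2 weeks and 0.12 at 24 weeks. No member passed for this change of the smoke difference in either set, with 3 and 2 of 10 at an unadjusted p under 0.05 in limma, beside 18.6% and 17.2% of all genes at that threshold and 0.0324% and 0.146% past the adjusted one.

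Gclm went the other way at 24 weeks, at 7.76 to 8.32 (median 8.25) in air and 7.72 to 8.18 (median 7.96) in smoke. The difference of -0.23 (95% interval -0.45 to -0.00) did not pass (adjusted p = 0.199 in limma), and at 2 and 12 weeks it was 0.10 and -0.06. In the mice without Glycam1 arrays Gclm differed by 0.09, 0.01 and -0.18 at the 3 times. Gsr, glutathione reductase, which regenerates reduced glutathione, differed by 0.10, -0.03 and -0.04 at the 3 times, with 95% intervals from -0.16 to 0.21 over the 3 times, and by 0.10, 0.02 and -0.09 without the Glycam1 arrays.

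Among the thiol reductases, Txnrd1, which encodes cytosolic thioredoxin reductase, differed by 0.05, -0.06 and -0.07, with intervals from -0.20 to 0.19 over the 3 times (0.02, -0.00 and -0.07 without the Glycam1 arrays). Srxn1, the sulfiredoxin that repairs overoxidised peroxiredoxins, differed by 0.07, -0.01 and -0.10, with intervals from -0.45 to 0.43. Sod2, the manganese superoxide dismutase of mitochondria and a gene also driven by inflammatory signals, differed by -0.00, -0.01 and -0.06, with intervals from -0.17 to 0.11. The sign at 24 weeks was not stable for either gene. Srxn1 differed by 0.03, 0.12 and 0.10 at the 3 times in the mice without Glycam1 arrays, and by 0.13 at 24 weeks when smoke replicate 6 alone was left out. Sod2 differed by -0.01, 0.02 and 0.07 in those mice, and by 0.03 at 24 weeks without smoke replicate 6. All the intervals are on the log2 scale and refer to differences between group means.

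The arrays with high Glycam1 differed from the rest in several of these genes. Their median level of Hmox1 was 8.38, against 7.36 on the other arrays, and that of Gclc 8.57 against 8.20. Keap1 was lower on them, at 10.53 against 10.78, as were Gclm, at 7.95 against 8.21, and Nqo1, at 10.20 against 10.35. Mouse G8 gave 1 array with high Glycam1 and 1 without. Hmox1 stood at 8.67 on the first and 6.70 on the second, a difference of 1.97. Gclc differed by 0.59 in the same direction, whereas Nqo1 (-0.63), Keap1 (-0.57), Srxn1 (-0.55), Gclm (-0.39), Sod2 (-0.33), Gsr (-0.29) and Txnrd1 (-0.28) were lower on the array with high Glycam1. The medians pool all groups, over which these arrays were spread unevenly, so in them group and array type cannot be told apart. In the mice without such arrays the mean of Gclc was already 8.46 after 24 weeks of smoke and 8.48 in cessation RA, and that of Hmox1 was 7.27 and 7.66. The values of G8 rest on a single pair of arrays, and no test was made of these differences.

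**Figure D3:**
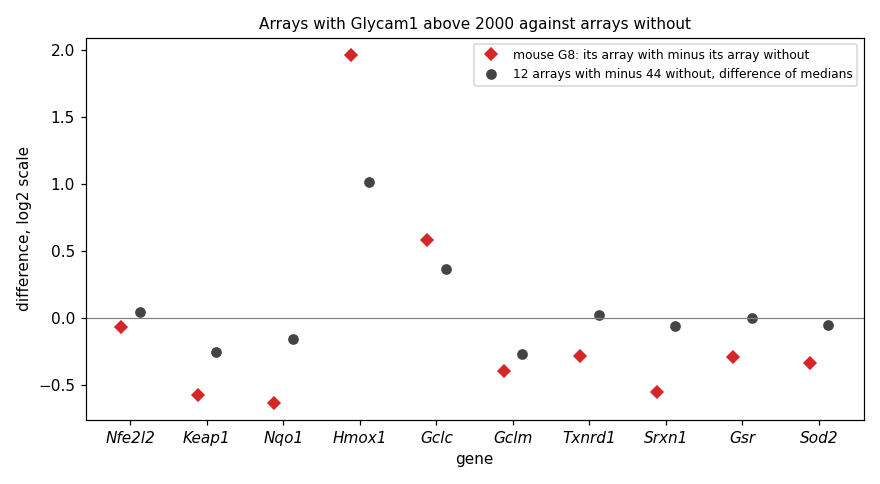
Difference between arrays with and without high Glycam1 (log2 scale) for each gene. Diamonds are the 2 arrays of mouse G8 and circles the difference of medians between the 12 and the other 44 arrays. Hmox1 and Gclc lie above 0 by both measures, and Keap1, Nqo1 and Gclm lie below it by both, as do Srxn1 and Sod2 by -0.06 and -0.05 in the medians. The medians pool all groups, so group and array type cannot be told apart in them.

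After cessation, the question was whether the pathway differed from that of mice that had smoked or breathed air for the whole 24 weeks. Nfe2l2 was the only one of the 10 genes that passed with all mice. It was lower in both cessation arms than after 24 weeks of smoke. The comparisons of FA and RA share the 24-week smoke mice, so they are not independent. Nfe2l2 ran from 10.69 to 11.05 (median 10.76) after 24 weeks of smoke, from 10.57 to 10.62 (median 10.59) in cessation FA and from 10.52 to 10.78 (median 10.56) in cessation RA. All 6 FA mice lay below the lowest smoke mouse, and 5 of 6 RA mice did. It fell by 0.24 in FA (SE 0.07, 95% interval -0.38 to -0.10, adjusted p = 0.0410 in limma), which is 1.18-fold lower, and by 0.25 in RA (SE 0.07, -0.39 to -0.11, adjusted p = 0.0427). So 1 of 10 genes passed in FA against smoke, beside 3.55% of all genes, and 1 of 10 in RA against smoke, beside 2.34%. Groups that did not overlap, with FA lower, were found for 1 of 10 genes and for 0.632% of all genes.

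The calls for Nfe2l2 depended on single mice, on the probe set and on whether all 9 groups entered the fit. In the mice without Glycam1 arrays 0 of 10 genes passed in FA against smoke (2 at an unadjusted p under 0.05 in limma, beside 18.8% of all genes at that threshold and 1.89% past the adjusted one), and Nfe2l2 differed by -0.23 (adjusted p = 0.164) on 5 and 3 mice, and in RA by -0.18 (adjusted p = 0.342) on 3 and 3. Leaving out 1 mouse at a time, the FA call was lost in 9 of 12 fits, with adjusted p up to 0.0806. It was lost without smoke replicates 1, 2, 3 or 6 and without FA replicates 1, 2, 3, 5 or 6, and the differences stayed between -0.27 and -0.20. The RA call was lost in 8 of 12 fits, with adjusted p up to 0.105, without smoke replicates 1, 2 or 3 and without RA replicates 1 to 5, with differences between -0.29 and -0.20. A second probe set of Nfe2l2, at a mean level of 5.87 close to the brightness minimum, went the other way, by 0.14 in FA and 0.28 in RA. With the mean of both probe sets the differences were -0.05 and 0.016. In fits of the compared groups alone the differences stayed at -0.24 and -0.25, with adjusted p of 0.477 in FA and 0.720 in RA in limma. The mean of the lymphocyte markers ran from 4.92 to 11.03 after 24 weeks of smoke, from 4.86 to 8.11 in FA and from 4.86 to 9.43 in RA. In FA against smoke 10 of 10 slow fibre genes and 9 of 10 endothelial markers were above 0 with all mice. Of macrophage markers 1 of 11 was, and of fat cell markers 0 of 8. In RA these counts were 10, 8, 1 and 2. Past the threshold were 1 endothelial marker in FA and 3 in RA. The part of these lists in the result was not tested.

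Against 24 weeks of air, no gene of the 10 passed in cessation FA, with 0 at an unadjusted p under 0.05 in limma in either set of mice, beside 865 of the 12351 genes at that threshold with all mice and 1335 without the Glycam1 arrays. Past the adjusted threshold were 0.0810% and 0.235% of all genes. The comparisons of both arms with air, and that of 24 weeks of smoke, share the same air mice. The differences in FA ran from -0.17 for Srxn1 to 0.11 for Nqo1. In cessation RA 0 of 10 passed with all mice (2 at an unadjusted p under 0.05, Gclc at 0.25 and Txnrd1 at 0.16, beside 13.7% of all genes at that threshold and 1.76% past the adjusted one). Without the Glycam1 arrays 3 of 10 passed, all higher in RA, beside 3.97% of all genes. These were Nqo1, Txnrd1 and Srxn1, on 3 RA and 5 air mice.

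Txnrd1 read 11.66, 11.62 and 11.72 in the 3 RA mice without high Glycam1, and 11.37, 11.47, 11.32, 11.38 and 11.47 in the 5 air mice. The groups did not overlap, and it rose by 0.27 (SE 0.07, 95% interval 0.12 to 0.41, adjusted p = 0.0292 in limma). Both other probe sets of Txnrd1 were higher in RA too, by 0.42 and 0.49. Nqo1 read 10.68, 10.77 and 10.50 in RA and 10.20, 10.24, 10.46, 10.15 and 10.42 in air. It rose by 0.35 (SE 0.10, 0.15 to 0.55, adjusted p = 0.0348), 1.28-fold, again without overlap. Srxn1 read 10.48, 10.50 and 10.59 in RA and 9.58, 10.05, 9.76, 10.52 and 10.10 in air, so that 1 air mouse lay among the RA mice. It rose by 0.52 (SE 0.15, 0.22 to 0.82, adjusted p = 0.0393), 1.43-fold, and the other bright probe set of Srxn1 was higher by 0.53, whereas the dimmest was lower, at -0.24. The difference of the remaining probe set of Srxn1 is not given here, and the one used carries the suffix of shared sequence.

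Gclc, at 8.51, 8.46 and 8.45 in RA, and Gsr, at 11.87, 11.83 and 11.92, also lay above all 5 air mice, by 0.25 and 0.11 in the mean, but did not pass (adjusted p = 0.154 and 0.302 in limma). The margin between the nearest mice was thin, since the highest air mouse read 8.45 for Gclc and 11.82 for Gsr. Groups without overlap and RA higher were thus found for 4 of 10 genes, beside 4.37% of all genes. In the 3 RA mice with Glycam1 arrays Txnrd1 read 11.46, 11.41 and 11.46, Nqo1 10.29, 10.32 and 10.45 and Srxn1 10.01, 9.83 and 9.88, each below the other 3 RA mice.

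With 3 mice in the RA group these calls depended on single mice. Txnrd1 passed in 5 of 8 fits that left out 1 mouse and was lost without any of RA replicates 2, 3 or 6 (adjusted p = 0.105, 0.0698 and 0.107 in limma). Nqo1 passed in 3 of 8 and was lost without air replicates 1, 2 or 4 or RA replicates 2 or 3, with adjusted p up to 0.200. Srxn1 passed in 2 of 8 and was lost without air replicates 1, 2 or 3 or any RA mouse, with adjusted p up to 0.121. No difference changed its sign in these fits, and they ran from 0.24 to 0.29 for Txnrd1, 0.29 to 0.43 for Nqo1 and 0.41 to 0.65 for Srxn1. Over the same mice the mean of the fat cell markers (8 measured of 11) ran from 8.43 to 9.29 in RA and from 8.94 to 11.74 in air. Of these 8 markers 0 were above 0 in RA against air, with a median difference of -1.21, and 1 fell past the threshold. The mean of 11 macrophage markers ran from 8.50 to 8.72 and from 8.56 to 9.24, with 0 of 11 above 0, a median of -0.32 and none past the threshold. The mean of 10 slow fibre genes ran from 12.29 to 12.41 in RA and from 11.83 to 12.59 in air, with 9 of 10 above 0 and none past the threshold, and that of the muscle markers had a median of 13.53 in both groups. The part of these cells and fibres in the result was not tested.

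**Figure D4:**
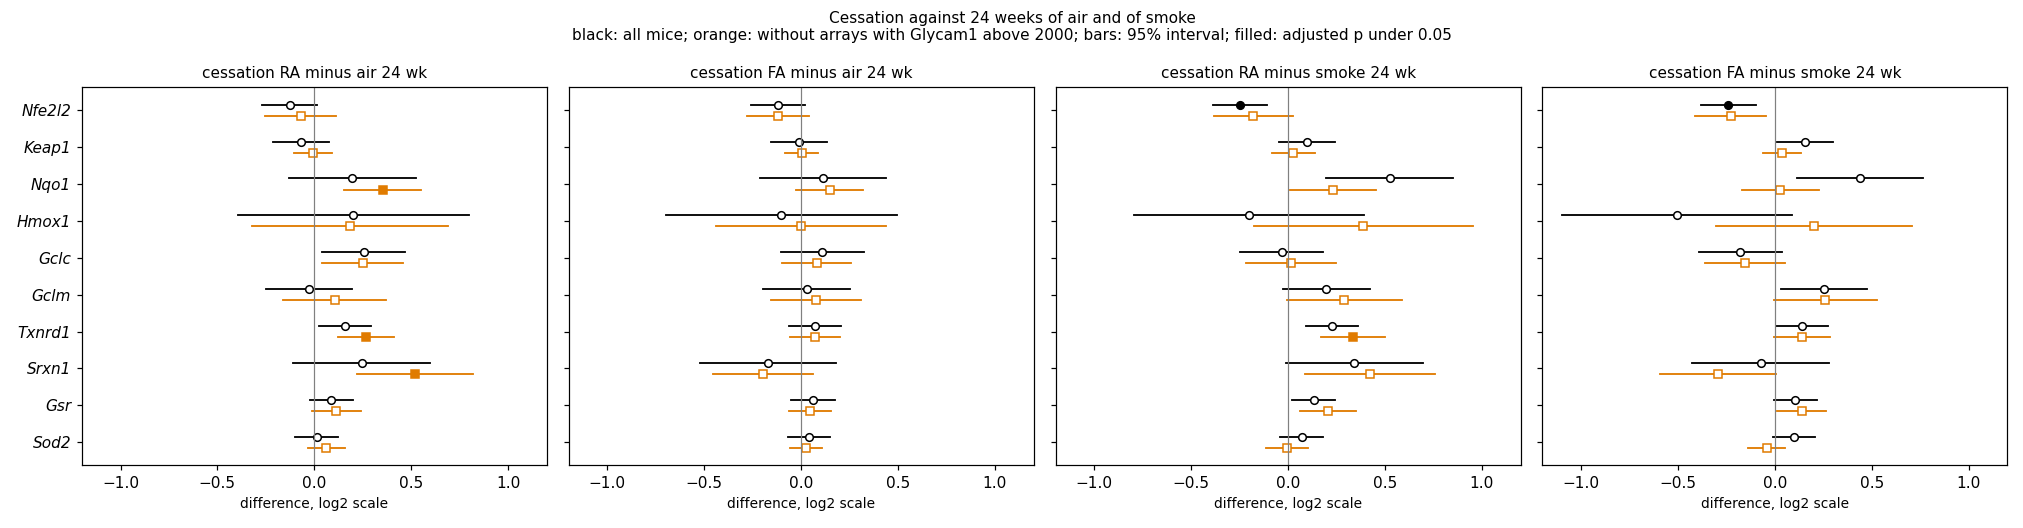
Difference (log2 scale, with 95% intervals) of cessation RA and FA from 24 weeks of air and from 24 weeks of smoke, for each gene. Black circles are all mice, orange squares the mice without arrays with Glycam1 above 2000, and filled symbols mark an adjusted p under 0.05. Filled symbols are Nfe2l2 against smoke with all mice and Nqo1, Txnrd1 and Srxn1 in RA without the Glycam1 arrays.

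Txnrd1 also passed in RA against 24 weeks of smoke among the mice without high Glycam1. This comparison and that with air use the same 3 RA mice. The 3 smoke mice read 11.47, 11.21 and 11.31, below all 3 RA mice, and Txnrd1 rose by 0.34 (SE 0.08, 95% interval 0.17 to 0.50, adjusted p = 0.0162 in limma), 1.26-fold, the only 1 of 10 genes past the threshold, beside 3.28% of all genes. The call was lost without smoke replicates 4 or 5 or RA replicate 6, with adjusted p = 0.109, 0.0769 and 0.0876. With all mice Txnrd1 differed by 0.23 (adjusted p = 0.0538) and Nqo1 by 0.52 (adjusted p = 0.0723). Txnrd1 passed with all mice when smoke replicate 1 or 3 or RA replicate 1, 4 or 5 was left out (adjusted p from 0.0211 to 0.0483). Nqo1 passed without smoke replicates 3 or 4 (0.0119 and 0.0350), and without the same mice it passed in FA against smoke too (0.0247 and 0.0385), where it differed by 0.44 with all mice (adjusted p = 0.0895). Without smoke replicate 6 it differed by 0.24 in RA and 0.16 in FA (adjusted p = 0.294 and 0.522), and in the mice without Glycam1 arrays by 0.23 and 0.03. RA lay above smoke without overlap for 4 of 10 genes (Hmox1, Txnrd1, Srxn1 and Gsr), beside 10.0% of all genes. In the mice without high Glycam1 all 10 slow fibre genes were above 0 in RA against smoke, with a median of 0.67 and none past the threshold, and their mean ran from 12.29 to 12.41 in RA and from 10.88 to 12.49 in smoke. Of 10 endothelial markers 3 rose, and their mean ran from 9.27 to 9.41 and from 8.97 to 9.27. None of 8 fat cell markers was above 0, with a median of -0.94 and a mean of 8.43 to 9.29 in RA and 9.39 to 9.93 in smoke. The part of these lists in the result was not tested.

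The cessation arms were also set against each other. With all mice 0 of 10 genes passed, with 1 at an unadjusted p under 0.05 in limma (Srxn1, at 0.42), beside 4.15% of all genes at that threshold and 0.0243% past the adjusted one. With the Glycam1 arrays set aside 0 passed, with 3 at an unadjusted p under 0.05, beside 7.42% of all genes and 0.0324% past the adjusted one. Srxn1 came nearest, at 10.48, 10.50 and 10.59 in RA and 10.03, 9.71, 9.98, 9.53 and 9.78 in FA. The difference was 0.72 (SE 0.15, 95% interval 0.42 to 1.02), 1.64-fold, with an adjusted p of 0.0537 in limma, and it passed when FA replicate 1 or 3 was left out (0.0412 and 0.0472) or when arrays were quantile normalized. Srxn1, Txnrd1 and Gclc, 3 of 10 genes, lay higher in RA without overlap, beside 2.07% of all genes.

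Set against mice taken at 12 weeks of smoke, when exposure of the cessation arms ended, cessation FA showed 0 of 10 genes past the threshold with all mice (1 at an unadjusted p under 0.05 in limma, beside 801 of the 12351 genes) and 0 without the Glycam1 arrays (2 at that threshold, beside 1854). Past the adjusted threshold were 0.340% and 1.94% of all genes. Txnrd1 came nearest, at 11.02 to 11.36 (median 11.22) after 12 weeks of smoke and 11.36 to 11.57 (median 11.46) in FA, a difference of 0.25 (SE 0.06) with an adjusted p of 0.0729 and 5 of 6 FA mice above the smoke range. It passed without smoke replicate 2 (0.0488). The FA mice were taken at 24 weeks and these smoke mice at 12, so the end of smoke and the added weeks cannot be told apart. In air alone the mean of Txnrd1 was 11.20, 11.28 and 11.39 at 2, 12 and 24 weeks. Cyp1a1 fell by 1.27 (SE 0.24, adjusted p = 0.00381 in limma) in the same comparison.

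From untreated mice to 2 weeks of sham air, 9 of 10 differences were below 0, with a median of -0.14 against 0.01 over all genes. With all mice 0 of 10 passed, with 2 at an unadjusted p under 0.05 in limma, Txnrd1 and Gsr, beside 7.38% of all genes at that threshold and 0.518% past the adjusted one. Txnrd1 ran from 11.41 to 11.56 (median 11.43) in untreated mice and from 11.02 to 11.35 (median 11.24) after 2 weeks of air, with no overlap, as for 1 of 10 members and 0.858% of all genes. Gsr ran from 11.76 to 11.90 (median 11.82) and from 11.31 to 11.78 (median 11.65), with 5 of 6 air mice below the lowest untreated mouse. The differences were -0.26 (SE 0.07) and -0.21 (SE 0.06), each with an adjusted p of 0.0580.

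Both passed in the mice without Glycam1 arrays, 2 of 10 beside 1.91% of all genes. Txnrd1 fell by 0.23 (SE 0.06, 95% interval -0.36 to -0.10, adjusted p = 0.0440 in limma) and Gsr fell by 0.21 (SE 0.05, -0.32 to -0.10, adjusted p = 0.0356), on 5 and 5 mice. Leaving out 1 mouse at a time, Txnrd1 then passed in 2 of 10 fits, without untreated replicate 6 or air replicate 6, and Gsr in 4 of 10, without untreated replicate 6 or air replicates 1, 5 or 6, with adjusted p up to 0.173. With all mice Gsr passed without air replicates 5 or 6 (0.0272 and 0.0375) and Txnrd1 without air replicate 6 (0.0336). Nqo1 was lower by 0.26 without the Glycam1 arrays and did not pass (adjusted p = 0.0997). The other probe sets of Txnrd1 were lower by 0.40 and 0.36 with all mice, and that of Gsr by 0.25, differences that were not tested. The mean of 10 endothelial markers ran from 9.28 to 9.38 in untreated mice and from 9.06 to 9.33 after 2 weeks of air, and 2 of them fell in the mice without Glycam1 arrays. The mean of the 10 slow fibre genes ran from 11.73 to 12.31 and from 11.49 to 12.02, with 0 of 10 above 0 and a median of -0.25, none past the threshold. The part of both lists in the result was not tested. From 2 to 24 weeks of air 0 of 10 passed in either set (2 at an unadjusted p under 0.05 in each, Txnrd1 and Gsr, in limma, beside 11.8% and 20.8% of all genes at that threshold and 0.219% and 2.71% past the adjusted one), and Txnrd1 differed by 0.19 and Gsr by 0.13 with all mice. Of the 10 differences 9 were above 0 in either set. This comparison and that with untreated mice share the mice at 2 weeks of air, so they are not independent. Untreated mice were the only ones at week 0, so age and handling cannot be told apart here.

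Over all 9 groups the members did not share one order. The highest group mean was that of cessation RA for Nqo1, Txnrd1, Srxn1 and Gsr (10.50, 11.55, 10.21 and 11.84, each n = 6), that of 24 weeks of smoke for Nfe2l2, Hmox1 and Gclc (10.83, 8.01 and 8.53), that of 2 weeks of smoke for Keap1 and Gclm (10.84 and 8.23) and that of untreated mice for Sod2 (12.70). The lowest was that of 2 weeks of air for Txnrd1, Srxn1 and Gsr (11.20, 9.70 and 11.62) and that of 24 weeks of smoke for Keap1, Nqo1, Gclm and Sod2 (10.59, 9.98, 7.96 and 12.59). The span between the highest and the lowest mean was 0.11 for Sod2, the smallest, and 0.83 for Hmox1, the largest. For Hmox1 the span was 0.48 without the Glycam1 arrays, near the median standard deviation of 0.33, and the group of highest mean was then cessation RA. With these arrays set aside cessation RA had the highest mean of Nqo1, Hmox1, Gclc, Gclm, Txnrd1, Srxn1 and Gsr, on 3 mice. Its lead was thin for Gclc, at 8.48 against 8.46 after 24 weeks of smoke, and for Gclm, at 8.28 against 8.27 in untreated mice. A mean of 3 mice varies more than one of a larger group, and the share of all genes highest in RA was not counted.

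Within groups the 10 genes did not move as a block. Over the 44 mice without high Glycam1, with group means subtracted, the 45 pairs of genes had a median Pearson r of 0.07, and 27 were above 0. The highest was 0.54, between Keap1 and Txnrd1, and the lowest -0.56, between Gclm and Sod2. The gene of most similar pattern among all tested was Gabarap for Gsr (r = 0.84), Trim54 for Gclm (0.84), Rgl1 for Hmox1 (0.81), Etv5 for Sod2 (0.80), Psmb2 for Keap1 (0.75), Map1b for Srxn1 (0.74), Tle5 for Txnrd1 (0.72), Spryd7 for Nqo1 (0.68), Fzd4 for Nfe2l2 (0.67) and Grwd1 for Gclc (0.66, by a probe set of shared sequence). These are descriptions over 44 mice that share arrays and processing, and each named gene is the highest of all those tested.

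Other genes of the pathway were followed through 7 lists of 113 genes, of which 98 were tested. With all mice none passed between smoke and air at any time (limma), neither among 12 partners and regulators, 27 tested of glutathione metabolism, 15 of thioredoxins and peroxiredoxins, 18 of quinone and carbonyl reduction, 9 of heme and iron handling, 9 of NADPH supply nor 8 of superoxide and peroxide removal. At an unadjusted p under 0.05 there were 1, 2 and 18 of 98 at 2, 12 and 24 weeks and 4 for the average, beside 2.06%, 1.86%, 24.6% and 9.17% of all genes. Their median difference at 24 weeks was -0.08, beside -0.03 for all genes, and 31 of 98 were above 0. The nearest was Bach1, the repressor that competes with NRF2 at the same elements, at 11.64 after 24 weeks of smoke and 11.44 after 24 weeks of air (SD 0.06 and 0.07). The difference was 0.20 (SE 0.05, adjusted p = 0.0587 in limma). Gstm7 and Aldh7a1 followed, at -0.56 and -0.28 (adjusted p = 0.0820 and 0.0959). At 12 weeks the lowest p-values were those of Gss, Glrx and H6pd (-0.26, -0.17 and 0.19), and at 2 weeks those of Akr1b8, Pgd and Akr1a1 (-0.46, -0.68 and -0.19), all with adjusted p above 0.99. Prdx2, at -0.06, had the lowest p after Bach1 and Gstm7 for the average of the times. With the Glycam1 arrays set aside 1 of 98 fell at 24 weeks, beside 0.364% of all genes past the threshold. This was the glutathione transferase gene Gstt2, lower by 0.69 (SE 0.16, adjusted p = 0.0375 in limma) on 3 smoke and 5 air mice.

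In the cessation comparisons few of these genes passed with all mice. In RA against 24 weeks of air Bach1 rose by 0.25 (SE 0.05, adjusted p = 0.00582 in limma) and Mt2, a metallothionein, fell by 0.92 (SE 0.25, adjusted p = 0.0443). So 1 of 98 rose and 1 fell there, beside 1.76% of all genes past the threshold in either direction. In FA against 24 weeks of smoke Gpx7 rose by 0.53 (SE 0.13, adjusted p = 0.0208 in limma), 1 of 98 beside 3.55% of all genes. Neither Mt2 nor Gpx7 passed in the mice without Glycam1 arrays, at -1.02 and 0.27 (adjusted p = 0.0890 and 0.169). With those arrays set aside 1 of 98 rose and 8 fell in RA against air, beside 3.97% of all genes past the threshold in either direction. Bach1 rose by 0.25, while Gstt2 fell by 0.97, Mt1 by 1.04, Ephx1 by 0.41, Aldh2 by 0.27 and the glutathione conjugate exporter gene Abcc1 by 0.25 (adjusted p from 2.95e-04 to 0.0285). The NRF2 target Osgin1 fell by 0.61 in FA and 0.64 in RA against smoke (adjusted p = 0.0165 and 0.0193 in limma), and Pon2 fell by 0.36 in RA (0.0415). These were 1 of 98 genes in FA, on 5 and 3 mice, beside 1.89% of all genes. In RA they were 2 of 98, on 3 and 3 mice, beside 3.28%. Both comparisons share the same 3 smoke mice, and Osgin1 overlapped between FA and smoke. Neither gene passed with all mice, and fits without 1 mouse were not made for the listed genes. Over all 98 genes the median difference of RA from air in these mice was -0.07, beside -0.03 for all genes tested.

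In 3 further comparisons 0 of 98 passed with all mice, and 4 of 98 passed in each in the mice without Glycam1 arrays. Beside them 1.91% of all genes passed from untreated mice to 2 weeks of air, 2.71% from 2 to 24 weeks of air and 1.94% in FA against 12 weeks of smoke. From untreated mice to 2 weeks of air Gpx3, the secreted glutathione peroxidase, fell by 0.50 and Gstm2 by 0.18, while Txnrd2, the mitochondrial thioredoxin reductase, rose by 0.27 and Pon2 by 0.28 (adjusted p from 0.0161 to 0.0453 in limma). From 2 to 24 weeks of air Gpx3 rose by 0.48, Ephx2 by 0.46 and Aldh2 by 0.32, and Cul3, the scaffold of the ligase through which KEAP1 acts, fell by 0.12 (0.00466 to 0.0259). These comparisons share the mice at 2 weeks of air. In FA against 12 weeks of smoke Abcc1 fell by 0.35 and Pon2 by 0.27, and Gstm2 rose by 0.22 and the iron exporter gene Slc40a1 by 0.38 (5.22e-05 to 0.0405). The end of smoke and the added weeks cannot be told apart in that comparison.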

How the data were processed

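Intensity values per probe set were deposited by the authors on a linear scale. Summarisation and normalisation are not given in the sources used here. Labelling was with biotin after amplification of the RNA, per the labels. The table held 45037 probe sets, of which 34945 matched 1 gene symbol in the platform annotation. Arrays have no read depth, and the number of mice limits precision.

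Values were floored at -15, 16 was added and log2 taken. The brightest probe set stood for each gene, and genes under the 40th percentile of all probe sets were left out. Both arrays of mouse G8 were averaged. A limma (3.58.1, R 4.3.3) model with all 9 groups gave 13 comparisons, with 46 residual degrees of freedom. Named were all 10 members, for each the gene of highest correlation, listed pathway genes past the threshold (up to 6 of lowest p in comparisons other than smoke against air), or the 3 of lowest p in smoke comparisons, and Cyp1a1. Members and lists were chosen with earlier results of these data known. On simulated data for 12351 genes, of 100 changed by 0.5, 64 were found for 24 weeks of smoke and 60 for cessation RA against air. Among the other genes 7 and 15 were called falsely. The noise was drawn independently for each gene with all mice in their groups. These counts therefore do not apply to the fits without Glycam1 arrays, nor to variation that genes share. Figures used Python 3.11.15 and matplotlib 3.10.9.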

Additional observations from a re-analysis of the deposited data

Results flagged for a closer look

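In 90 groups of mice, 10 genes in 9 groups, 12 had a highest or lowest mouse whose gap to the next was large against the group's range (Dixon's test), where chance gives about 1 in 20. The 10 genes share mice and arrays, so the 90 are not independent and the 12 cannot be weighed against that rate. In 7 of the 12 the mouse had an array with high Glycam1. Among these, replicate 6 of 24 weeks of smoke was lowest for Nqo1 (8.58), Srxn1 (8.72) and Sod2 (12.17). Replicate 5 of 12 weeks of smoke was lowest for Nqo1 (9.61) and highest for Hmox1 (8.77). Replicate 1 of the untreated mice was lowest for Keap1 (10.47), and replicate 3 of 2 weeks of air was lowest for Srxn1 (9.45). The other 5 had no such array. Nfe2l2 was highest in replicate 6 of cessation RA (10.78). Gclm was lowest in replicate 4 of 2 weeks of air (7.94) and replicate 3 of 24 weeks of air (7.76). Srxn1 was highest in replicate 2 of the untreated mice (10.36) and replicate 1 of 12 weeks of air (10.26). The cause was not tested for any of them.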

How the results depend on the processing

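The number of the 10 genes past the threshold was 0 between smoke and air at each time and for their average under all 16 alternatives and in all fits without 1 mouse. Elsewhere it moved, and the cause was not tested. For FA against 24 weeks of smoke it was 1, and 0 without the filter on dim genes, with the mean of probe sets (11741 genes tested), with the compared groups alone, with array weights, with the second G8 array alone, without the Glycam1 arrays (also with quantile normalization) and with the lymphocyte mean or the Glycam1 array as a covariate, and 2 at an adjusted p under 0.1. For RA against smoke it was 1, and 0 without the filter, with the mean of probe sets and with the compared groups alone, 2 with robust moderation and with the first G8 array alone, and 3 with either covariate and at an adjusted p under 0.1. A count of 1 there did not always mean Nfe2l2. With array weights Nfe2l2 was lost and Txnrd1 passed (adjusted p = 0.0877 and 0.00868 in limma). Without the Glycam1 arrays (also with quantile normalization) the gene past the threshold was again Txnrd1. For RA against air the number was 0, and 3 without the Glycam1 arrays (also with quantile normalization), 2 with array weights and 1 with the lymphocyte covariate. For RA against FA it became 1 with array weights and without the Glycam1 arrays under quantile normalization. For FA against 12 weeks of smoke it became 1 with array weights, the second G8 array, either covariate and at 0.1. For 2 weeks of air against untreated mice it became 3 with array weights, and 2 with robust moderation, without the Glycam1 arrays (also quantile normalized), with either covariate and at 0.1. Array weights gave 1 for 24 against 2 weeks of air and for the change of the smoke difference. Without 1 mouse the counts ran from 0 to 2 for FA and RA against smoke and for 2 weeks of air against untreated mice, from 0 to 1 for FA against 12 weeks of smoke, and were 0 otherwise. The single called difference that changed sign was Nfe2l2 in RA against smoke, at 0.016 with the mean of probe sets. The Glycam1 covariate and the quantile normalization without Glycam1 arrays were chosen after seeing the data. Of 130 differences of single genes, 60 changed sign under some setting. No paired analysis was possible because the groups hold different mice whose replicate numbers only follow the order of the samples.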
